A study of Mus musculus with 30 samples.

Results

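Killer lymphocytes end the life of a target cell by a pair of routes, and 10 genes of these routes were followed here in 5 lines of mouse fibrosarcoma. The genes were chosen by symbol, from what they are known to do: the death receptors Fas, Tnfrsf10b and Tnfrsf1a, the receptor complex genes Fadd, Casp8 and Cflar, the downstream genes Bid and Xiap, and the serpins Serpinb9 and Serpinb6b, which block granzymes. Earlier results of these data were known when the choice was made. All 10 were found among the 48440 genes of the count table, and all 10 were among the 16862 genes that passed the filter on low counts.

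RNA had been sequenced from 30 tumors, grown in C57BL/6 mice from 5 primary cell lines, each derived from a tumor induced with the carcinogen methylcholanthrene (MCA). In the study, the lines MCA-943 (4 tumors) and MCA-969 (8 tumors) were classed as non-sensitive to NK1.1+ cells, and MCA-948 (8 tumors), MCA-970 (6 tumors) and MCA-972 (4 tumors) as sensitive, by how they grew in mice depleted of these cells. The labels give the strain Ncr1Cre for MCA-943 and Ncr1Cre R26DTA, in which a toxin removes NKp46+ cells, for the other lines, and do not say whether the strain is that of the host or that of the original tumor. In the paper, mice of these genotypes were given MCA, while the cell lines were transplanted into C57BL/6 mice. MCA-943 is the only line with its strain label, so line and strain cannot be told apart there. Titles carry a letter, W or a, whose meaning is not stated and which 1 MCA-972 tumor lacks, and of the MCA-969 tumors, 2 (W-1D, W-2D) are labelled as sensitive. Each line came from 1 primary tumor, and hematopoietic cells had been removed with CD45 beads before RNA extraction. The methods describe injection of the cells under the skin of the right flank and resection of the tumors grown from them. The sources used here do not give the age of the sequenced tumors or state that each came from a mouse of its own, so p-values measure the spread between these samples.

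In the receptor route, a ligand on the lymphocyte clusters a death receptor, whose inner part binds the adaptor FADD. FADD gathers caspase-8, which is activated there unless its relative cFLIP, the product of Cflar, takes its place. Caspase-8 then cuts downstream caspases directly, or cuts BID, which opens the mitochondria, while XIAP holds caspases in check. In the granule route, perforin lets granzymes into the target, where granzyme B cuts BID and caspases, and the intracellular serpin encoded by Serpinb9 inactivates granzyme B. Serpinb6b encodes a related serpin that inhibits granzyme A.

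All 10 genes differed among the 5 lines, as did 94.1% of all tested genes, and no gene of the 10 separated every non-sensitive line from every sensitive line at the size of a call. MCA-943, a non-sensitive line, had the highest mean levels of Fas, Fadd, Casp8, Cflar, Bid and Serpinb9, while the sensitive line MCA-970 had the highest means of Tnfrsf10b, Tnfrsf1a and Serpinb6b. The other non-sensitive line, MCA-969, had the lowest mean levels of Casp8 and Serpinb9. Among the 10 genes, Bid alone had both non-sensitive line means on one side of all 3 sensitive line means, a pattern held by 16.7% of all tested genes.

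The sequences just before the start sites of 3 genes that were highest in MCA-943 are shown because interferon-induced genes were also highest in that line (values below). They are the 250 bases upstream of the RefSeq start, which for Serpinb9 and Casp8 lies downstream of the first GENCODE start of the gene, 5′ to 3′ on the strand of the gene, on GRCm38.p6. Capitals mark matches to 2 copies of GAAA separated by any 2 bases, the core of the interferon-stimulated response element, or to TTCNNNGAA, the core of the site bound by STAT dimers.

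Serpinb9, chr13:33004291-33004540, plus strand: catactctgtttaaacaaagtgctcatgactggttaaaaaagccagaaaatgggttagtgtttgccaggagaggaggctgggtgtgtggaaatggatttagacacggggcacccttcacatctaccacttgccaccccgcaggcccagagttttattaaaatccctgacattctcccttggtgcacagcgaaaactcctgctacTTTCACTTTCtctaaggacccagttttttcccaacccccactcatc

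Fas, chr19:34290409-34290658, plus strand: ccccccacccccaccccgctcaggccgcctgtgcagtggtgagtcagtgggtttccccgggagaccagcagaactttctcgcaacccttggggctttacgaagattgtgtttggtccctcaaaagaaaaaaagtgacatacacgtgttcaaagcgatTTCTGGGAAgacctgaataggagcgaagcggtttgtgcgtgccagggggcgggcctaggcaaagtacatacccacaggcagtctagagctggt

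Casp8, chr1:58802252-58802501, plus strand: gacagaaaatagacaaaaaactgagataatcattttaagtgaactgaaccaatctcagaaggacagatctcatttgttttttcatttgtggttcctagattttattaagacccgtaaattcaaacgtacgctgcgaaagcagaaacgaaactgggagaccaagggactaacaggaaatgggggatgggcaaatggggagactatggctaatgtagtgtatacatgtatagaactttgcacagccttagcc

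The search covered both strands of windows from 250 bases before to 50 bases after the start, and 9 of the 10 genes had such a window in the RefSeq table. The paired GAAA motif was matched in Serpinb9 and in Cflar, both on the reverse strand, and in 3.44% of 32851 windows. TTCNNNGAA, which reads the same on both strands, was matched in Fas and Tnfrsf1a and in 8.3% of windows. In Casp8 neither was matched. A match describes these letters only.

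The tumors held between 27745104 and 46537062 counts assigned to genes, with a median of 35039383. Levels are given in CPM, the share of the library's total count taken by a gene, with totals scaled by edgeR's TMM method. Differences are log2 fold changes from edgeR's quasi-likelihood model of the 5 lines, with their standard errors (SE) and p-values adjusted by the Benjamini-Hochberg method over all 16862 genes. A gene was called at an adjusted p under 0.05 and a log2 fold change of at least 1 in size. The difference among the 5 lines as a whole was tested by the F test of the same model. The share of all genes called stands beside the first count of each kind. Library numbers form 3 runs, and some calls changed with the run as a covariate: MCA-943 shares its run with 6 MCA-948 tumors only, MCA-970 with the other 2 MCA-948 tumors and 2 MCA-969 tumors, and MCA-972 with 6 MCA-969 tumors. In bulk RNA, fewer cells of a type and less RNA per cell cannot be told apart.

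**Figure D1:**
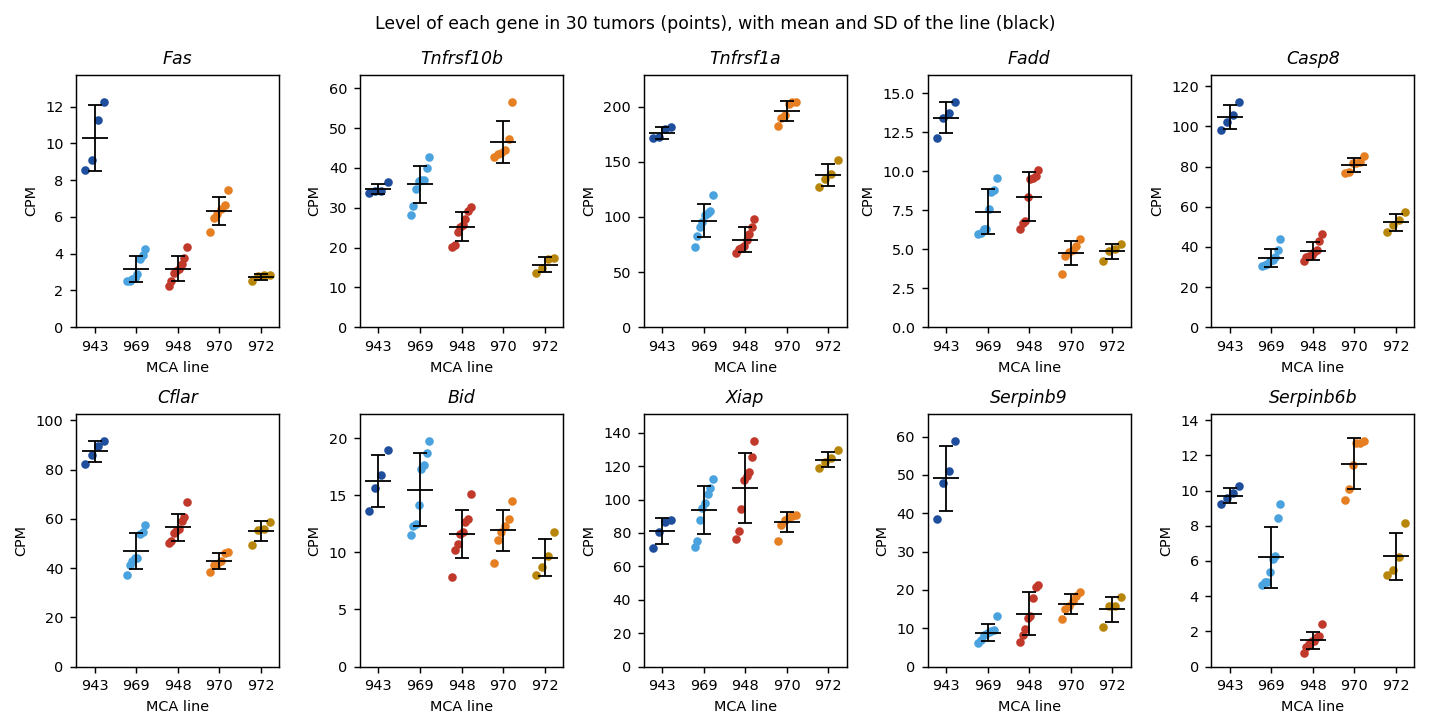
Level of the 10 genes in each of the 30 tumors. The y axis gives CPM from 0, the x axis the 5 MCA lines (MCA-943 and MCA-969 non-sensitive, the other 3 sensitive), points are tumors, and black marks are the mean and SD of the line. MCA-943 tumors sit apart from all others for Serpinb9 (38.4 to 58.9 against at most 21.2 CPM) and Fas (8.54 to 12.3 against at most 7.47 CPM), and MCA-948 tumors lie lowest for Serpinb6b (at most 2.42 CPM).

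Fas (ENSMUSG00000024778, chr19:34290666-34327772, plus strand), placed as are the other genes on GRCm38, encodes the receptor of Fas ligand. Its level was 8.54, 9.08, 11.3 and 12.3 CPM in the 4 MCA-943 tumors. It ran from 5.20 to 7.47 CPM in MCA-970, with a median of 6.29. These were the only lines whose tumors all exceeded 5 CPM, and MCA-943 and MCA-970 did not overlap. In MCA-969 Fas ran from 2.51 to 4.27 CPM (median 2.79), in MCA-948 from 2.23 to 4.37 CPM (median 3.12), and in MCA-972 it was 2.49, 2.78, 2.84 and 2.87 CPM. MCA-943 exceeded MCA-969 by 1.71 on the log2 scale (SE 0.16, edgeR adjusted p = 1.82e-10), MCA-948 by 1.69 (SE 0.16, adjusted p = 1.32e-10) and MCA-972 by 1.91 (SE 0.19, adjusted p = 2.16e-09). MCA-970 exceeded MCA-972 by 1.197 (SE 0.18, edgeR adjusted p = 3.22e-06), and MCA-969 lay below MCA-970 by a log2 difference of -1.001, at the threshold of the call. Differences among MCA-948, MCA-969 and MCA-972 did not pass the test. Of these 5 calls, 4 were lost with the run as a covariate. It took the differences of MCA-943 from MCA-969 and MCA-972 to 0.82 and 0.88, and those of MCA-970 from MCA-969 and MCA-972 to 0.66 and 0.72 in size, under the fold threshold with edgeR adjusted p between 0.00421 and 0.0234. The call of MCA-943 against MCA-948 remained, at 1.57, and MCA-948 was then called lower than MCA-970 (-1.41, edgeR adjusted p = 9.31e-07).

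Tnfrsf10b (ENSMUSG00000022074, chr14:69767472-69784411, plus strand) encodes the mouse receptor of the ligand TRAIL. Its level was highest in MCA-970, from 42.6 to 56.6 CPM with a median of 44.1. MCA-969 followed with 28.3 to 42.8 CPM (median 36.7) and MCA-943 with 33.7, 34.1, 34.2 and 36.5 CPM, and these did not differ by the test (edgeR adjusted p = 0.713). MCA-948 ran from 20.1 to 30.2 CPM (median 25.4), and MCA-972 was lowest with 13.5, 14.8, 17.1 and 17.4 CPM. The 3 calls were all against MCA-972, whose tumors overlapped with those of no other line: MCA-970 exceeded it by 1.56 (SE 0.12, edgeR adjusted p = 3.01e-11), MCA-969 by 1.19 (SE 0.12) and MCA-943 by 1.14 (SE 0.13). With the run as a covariate the last of these was 0.85, under the fold threshold, and MCA-948 was called lower than MCA-970 (-1.19, edgeR adjusted p = 4.51e-08).

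Tnfrsf1a (ENSMUSG00000030341, chr6:125349362-125362484, plus strand) encodes the main receptor of TNF, present on most cell types. It had the highest level of the 10 genes per length in every line, from 30.7 CPM per kb of exon in MCA-948 to 75.6 CPM per kb in MCA-970. In MCA-970 its level ran from 183 to 205 CPM (median 197), and in MCA-943 it was 171, 172, 180 and 182 CPM. These neighbours did not differ by the test (edgeR adjusted p = 0.211). MCA-972 had 127, 135, 139 and 152 CPM, MCA-969 from 72.5 to 120.2 CPM (median 98.7) and MCA-948 from 67.2 to 98.4 CPM (median 76.2). Tnfrsf1a was higher in MCA-970 than in MCA-948 by 2.46-fold, and than in MCA-969 by 2.03-fold, which was close to the threshold. MCA-943 exceeded MCA-948 by 1.15 on the log2 scale (SE 0.10, edgeR adjusted p = 1.54e-11). Once the run was a covariate, MCA-943 was also called higher than MCA-969 (1.34, edgeR adjusted p = 5.40e-07). The order of the lines differed between the receptors: MCA-943 led for Fas and was not called against MCA-969, MCA-948 or MCA-970 for Tnfrsf10b, while MCA-972 was intermediate for Tnfrsf1a and lowest for Tnfrsf10b.

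**Figure D2:**
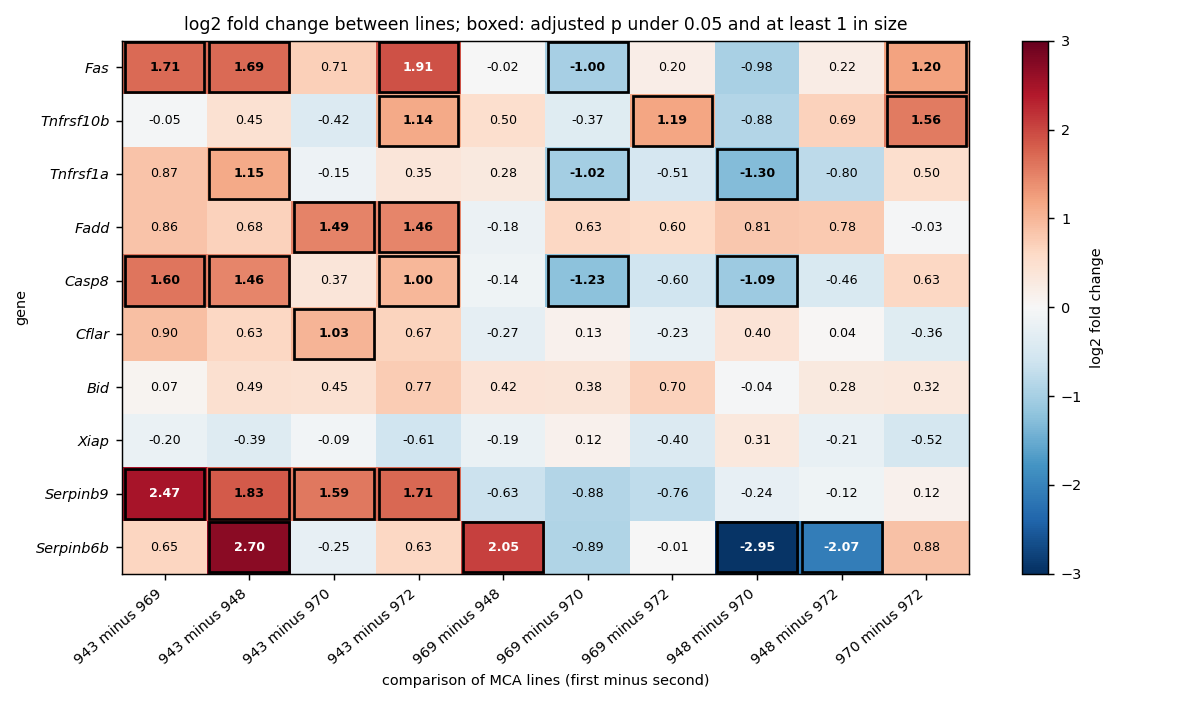
Log2 fold change of the 10 genes (rows) in the 10 comparisons of 2 lines (columns, first minus second). Red is higher in the first line and blue lower, and a box marks a call at an adjusted p under 0.05 and a log2 fold change of at least 1 in size. All 16 boxed cells in the 4 comparisons of MCA-943 are red, the largest boxed difference is that of Serpinb6b between MCA-948 and MCA-970 (-2.95), and the rows of Bid and Xiap hold no box.

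Casp8 (ENSMUSG00000026029, chr1:58795374-58847503, plus strand), the initiator caspase of the receptor complex, was 98.5, 102, 106 and 112 CPM in the MCA-943 tumors. It ran from 76.6 to 85.5 CPM in MCA-970 (median 81.7), was 47.3, 50.8, 53.5 and 57.5 CPM in MCA-972, and ran from 32.8 to 46.6 CPM in MCA-948 (median 36.8) and from 30.7 to 43.9 CPM in MCA-969 (median 33.1). Only MCA-948 and MCA-969, which did not differ by the test (edgeR adjusted p = 0.0972), had overlapping tumors. MCA-943 exceeded MCA-969, the line of the same sensitivity, by a log2 difference of 1.599 (SE 0.09, edgeR adjusted p = 2.79e-15), and the sensitive line MCA-970 by 0.37 (SE 0.09, adjusted p = 0.000922, under the fold threshold). Casp8 was also called higher in MCA-943 than in MCA-948 (log2 difference 1.46) and MCA-972 (1.003, at the threshold, and 0.75 with the run as a covariate). It was called lower in MCA-969 (-1.23) and in MCA-948 (-1.09) than in MCA-970. Its adjusted p in the F test, 1.0e-16, was the lowest of the 10 genes.

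Fadd (ENSMUSG00000031077, chr7:144577318-144582463, minus strand), the adaptor, was 12.1, 13.4, 13.7 and 14.5 CPM in MCA-943, above the tumors of all other lines. It ran from 6.31 to 10.1 CPM in MCA-948 (median 8.96) and from 5.97 to 9.57 CPM in MCA-969 (median 6.94), and was lowest in MCA-972 (4.23, 4.87, 5.04 and 5.37 CPM) and MCA-970 (3.42 to 5.65 CPM, median 4.90). Fadd was called higher in MCA-943 than in MCA-970 (log2 difference 1.49, SE 0.16, edgeR adjusted p = 2.35e-09) and MCA-972 (1.46, SE 0.18). MCA-970, with the second highest levels of Fas and Casp8, had the lowest mean level of the adaptor, which did not differ from that of MCA-972 by the test.

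Cflar (ENSMUSG00000026031, chr1:58711508-58758884, plus strand), which encodes the inhibitor cFLIP, was 82.2, 85.8, 89.7 and 91.6 CPM in MCA-943. The other lines lay between 37.3 CPM and 66.9 CPM, and of these MCA-970 overlapped with MCA-969 only. Their medians were 55.8 CPM in MCA-972, 55.4 in MCA-948, 44.0 in MCA-969 and 42.2 in MCA-970. Cflar was called once, in MCA-943 against MCA-970 (log2 difference 1.03, SE 0.10, edgeR adjusted p = 4.35e-10), close to the threshold, and at 0.89 with the run as a covariate. Casp8 and Cflar lie close together on chromosome 1, and their balance differed between lines. In counts per kb of exon, Casp8 over Cflar was highest in MCA-970, at 8.29 ± 0.51 (SD, n = 6), followed by MCA-943, at 5.25 ± 0.09 (SD, n = 4). It was 4.20 ± 0.65 (SD, n = 4) in MCA-972, 3.28 ± 0.54 (SD, n = 8) in MCA-969 and 2.96 ± 0.36 (SD, n = 8) in MCA-948. The MCA-970 tumors (7.67 to 8.99) overlapped with those of no other line. This ratio was chosen after the values of both genes were seen and was not tested. Its size depends on the exon lengths used, 12.669 kb for Cflar and 2.893 kb for Casp8, so it compares lines only. In mean CPM, Cflar exceeded Casp8 in MCA-969 (46.9 against 34.6), MCA-948 (56.6 against 38.1) and MCA-972 (54.9 against 52.3). Casp8 exceeded Cflar in MCA-943 (104.7 against 87.3) and MCA-970 (80.8 against 42.8).

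Bid (ENSMUSG00000004446, chr6:120891930-120916853, minus strand), which links both killing routes to the mitochondria, and Xiap (ENSMUSG00000025860, chrX:42059679-42109656, plus strand), the caspase inhibitor, varied least of the 10 genes and were called in no comparison. Bid ran from 13.57 to 18.98 CPM in MCA-943 (median 16.2) and from 11.5 to 19.7 CPM in MCA-969 (median 15.7). It ran from 9.09 to 14.5 CPM in MCA-970, from 7.83 to 15.1 CPM in MCA-948 and from 7.999 to 11.76 CPM in MCA-972. Both non-sensitive line means were above all sensitive ones, by log2 differences of 0.38 (SE 0.14) to 0.77 (SE 0.18) in the 6 comparisons. All 6 had an adjusted p under 0.05 (edgeR, 0.000549 to 0.0205) and were under the fold threshold. Within runs of library numbers the 4 comparisons that could be made had the same sign, from 0.36 to 1.06, and that of MCA-969 with MCA-948, at 1.06, did not pass (edgeR adjusted p = 0.125). With the run as a covariate over all tumors that comparison was called, at 1.05 (SE 0.22, edgeR adjusted p = 0.000809). In the same fit MCA-943 did not differ from MCA-970 (-0.02, edgeR adjusted p = 0.959) or from MCA-972 (-0.07, adjusted p = 0.889). The remaining differences were 0.38 for MCA-943 from MCA-948, and 0.65 and 0.60 for MCA-969 from MCA-970 and MCA-972. With 2 lines against 3, an exact permutation test on line means cannot give a one-sided p below 0.1. The tumors of the non-sensitive and the sensitive lines nevertheless overlapped. Xiap went from medians of 124 CPM in MCA-972 and 113 in MCA-948 to 83.4 CPM in MCA-943, and no 2 neighbours in its order of line means (MCA-972, MCA-948, MCA-969, MCA-970, MCA-943) differed by the test. The ranges of their line means, 0.77 for Bid and 0.61 for Xiap on the log2 scale, were below the median of all tested genes, 1.15.

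**Figure D3:**
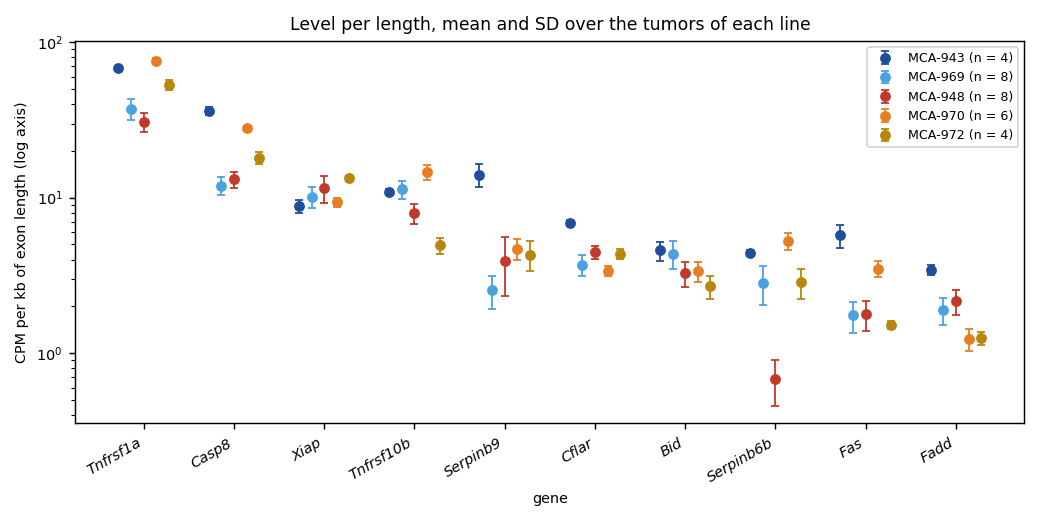
Level of the 10 genes per length, as mean and SD of CPM per kb of exon over the tumors of each line, on a log axis. Tnfrsf1a is highest in every line (30.7 to 75.6 CPM per kb), and Serpinb6b in MCA-948 (0.68 CPM per kb) lies lowest of all.

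Serpinb9 (ENSMUSG00000045827, chr13:33003250-33017957, plus strand), the inhibitor of granzyme B, was 38.4, 48.0, 51.2 and 58.9 CPM in the MCA-943 tumors. It ran from 12.4 to 19.4 CPM in MCA-970 (median 16.4), was 10.3, 15.8, 15.8 and 18.02 CPM in MCA-972, and ran from 6.52 to 21.2 CPM in MCA-948 (median 12.9). It was lowest in MCA-969, the other non-sensitive line, with 6.26 to 13.3 CPM (median 8.75). The MCA-943 tumors overlapped with no other, and the 3 sensitive lines overlapped and did not differ from each other by the test of all 30 tumors. Serpinb9 was the only 1 of the 10 genes called higher in MCA-943 than in each of the other 4 lines, as were 4.26% of all genes. It exceeded MCA-969 by 5.54-fold (log2 difference 2.47, SE 0.23, edgeR adjusted p = 2.31e-10), MCA-948 by 3.57-fold (1.83, SE 0.23, adjusted p = 3.83e-08), MCA-972 by 3.28-fold (1.71, SE 0.28, adjusted p = 6.58e-06) and MCA-970 by 3.01-fold (1.59, SE 0.24, adjusted p = 2.41e-06).

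The last 2 of these calls depended on the run of library numbers. Within the run that MCA-943 shares with 6 MCA-948 tumors Serpinb9 was higher in MCA-943 by 1.599 (SE 0.22, edgeR adjusted p = 5.68e-05). With the run as a covariate the difference from MCA-970 was 0.48 (adjusted p = 0.237) and that from MCA-972 was 0.89 (adjusted p = 0.111). Among the sensitive lines, MCA-948 was lower than MCA-970 within their shared run, by a log2 difference of -1.13 (SE 0.18, edgeR adjusted p = 0.000553, 2 and 6 tumors). In the fit of all tumors with the run this difference was -1.15 (adjusted p = 0.000973), against -0.24 without it. MCA-969 was also called lower than MCA-970 within their shared run (-1.08, edgeR adjusted p = 0.00274) and with the covariate (-1.10). The 2 MCA-948 tumors of another run had the lowest Serpinb9 of that line, 6.52 and 8.25 CPM, against 9.70 to 21.2 CPM in the other 6. Both also were the lowest MCA-948 tumors for Fas, Tnfrsf10b, Bid and Xiap. Direct comparison of MCA-943 with MCA-969, MCA-970 or MCA-972 within a run was not possible, and for these the fit with the run rests on MCA-948 and MCA-969, the lines that span runs.

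Serpinb6b (ENSMUSG00000042842, chr13:32965209-32979067, plus strand) was at 9.46 to 12.8 CPM in MCA-970 (median 12.1) and at 9.23, 9.56, 9.84 and 10.2 CPM in MCA-943, which did not differ by the test (edgeR adjusted p = 0.312). MCA-972 had 5.19, 5.50, 6.21 and 8.17 CPM and MCA-969 had 4.62 to 9.22 CPM (median 5.74), which did not differ either (adjusted p = 0.956 by edgeR). In MCA-948 it was 0.78 to 2.42 CPM (median 1.45), on 23 to 79 counts per tumor, below every tumor of the other lines. All 4 calls were against MCA-948: Serpinb6b was higher by 7.72-fold in MCA-970 (log2 difference of MCA-948 from MCA-970 -2.95, SE 0.18, edgeR adjusted p = 2.92e-14), by 6.50-fold in MCA-943, by 4.20-fold in MCA-972 and by 4.15-fold in MCA-969. Within the run that MCA-969 and MCA-948 share, with 2 tumors each, the last difference was 2.89 on the log2 scale and missed the threshold (edgeR adjusted p = 0.0517). The range of its line means, 2.96 on the log2 scale, was the widest of the 10 genes and wider than that of 86.3% of tested genes. Serpinb9 (2.48) and Fas (1.87) followed. Both serpin genes lie on mouse chromosome 13 in a cluster of close paralogs, so reads from shared sequence make their counts less certain.

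Counted over comparisons, 18 of 60 differences of a gene between a non-sensitive and a sensitive line were called, against 24.1% of those of all genes. Between lines of the same sensitivity 9 of 40 were called, against 25.2% for all genes. In the 6 comparisons between the sensitivities, none of the 10 genes was called 6 times with one sign. Of the 10 genes, MCA-943 had 3 called higher than in MCA-969, where 27% of all genes were called in either direction and 12.1% higher in MCA-943. It had 5 called higher than in MCA-948 (all genes 29%, higher 17.7%), 3 than in MCA-970 (27.3%, higher 12.6%) and 5 than in MCA-972 (25.6%, higher 12.2%), and none was called lower. The median log2 difference of the 10 genes was 0.86, 0.91, 0.41 and 0.89 in these comparisons, beside -0.04, -0.01, 0.03 and -0.01 over all genes. MCA-969 had 1 gene called higher than in MCA-948 (all genes 20.8%), 3 lower than in MCA-970 (21.4%) and 1 higher than in MCA-972 (20.6%). MCA-948 had 3 called lower than MCA-970 (29.4%) and 1 lower than MCA-972 (26.8%), and MCA-970 had 2 called higher than MCA-972 (17.6%). The comparisons share lines and are not independent.

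Tumors titled W and a were compared within MCA-943, MCA-948, MCA-969 and MCA-970, over 26 tumors. None of the 10 genes differed at an adjusted p under 0.05 (edgeR, 0.272% of all genes). At an unadjusted p under 0.05 there were 2, where 7.35% of all genes passed: Fas, with a log2 difference of a from W of -0.28 (SE 0.10, edgeR adjusted p = 0.442), and Serpinb6b, with -0.27 (SE 0.13, edgeR adjusted p = 0.644). Both were lower in the a tumors in each of the 4 lines, though MCA-943 has 1 W tumor. In 2 of these lines the letter was mixed with the run of library numbers. The 2 MCA-969 tumors of the run shared with MCA-970 are both W, with 3.71 and 4.27 CPM of Fas and 8.43 and 9.22 CPM of Serpinb6b, and the 2 MCA-948 tumors of that run are both a, with 2.23 and 2.503 CPM of Fas. With the run as a covariate the differences were -0.16 for Fas and -0.11 for Serpinb6b, with unadjusted p of 0.12 and 0.372 by edgeR (adjusted p = 0.449 and 0.703). Other genes passed the unadjusted threshold in that fit, all higher in the a tumors: Serpinb9 (log2 difference 0.38), Casp8 (0.14) and Xiap (0.12). None of the 10 genes passed the adjusted threshold there. Within a single run, the difference of a from W for Serpinb9 was 0.68 in MCA-948 and 0.49 in MCA-969. For Casp8 it was 0.33 and -0.03, and for Xiap 0.13 and 0.20.

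Other genes of the pathways were taken from 6 lists with 57 genes, of which 43 passed the filter, 42 differed among the lines by the F test and 33 were called in at least 1 of the 10 comparisons, as were 59% of all genes. MCA-943 had 15 of them called higher and 3 lower than in MCA-969, 19 higher and 0 lower than in MCA-948, 12 higher and 4 lower than in MCA-970, and 16 higher and 1 lower than in MCA-972. Of the 43, 9 were called higher in MCA-943 than in each of the other lines, by the rule that 4.26% of all genes passed. The lists were chosen with earlier results of these data known, so these counts are not independent of the data. Of the ligands, Tnfsf10 (TRAIL) was 5.37 ± 3.35 CPM (SD, n = 4) in MCA-943 against means of 0.36 to 2.48 CPM elsewhere, and Tnf was 2.89 ± 0.55 CPM (SD, n = 4) against 0.405 to 0.904 CPM. Tnfsf12 was highest in MCA-970, at 14.3 ± 2.0 CPM (SD, n = 6). The transcript of Fas ligand itself, Fasl, and that of lymphotoxin alpha, Lta, did not pass the filter.

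Among 8 other receptors, all tested, Tnfrsf26, a relative of the TRAIL receptors that lacks a death domain, was far higher in MCA-943, at 140 ± 11 CPM (SD, n = 4), than in the other lines, with means of 0.54 to 2.20 CPM. Tnfrsf21 (death receptor 6) was highest in MCA-972, at 36.3 ± 5.0 CPM (SD, n = 4), and Tnfrsf1b, the second TNF receptor, was highest in MCA-970 and MCA-943, at 54.3 and 52.3 CPM. Tnfrsf22, a decoy receptor of TRAIL, was highest in MCA-948, at 26.8 ± 5.1 CPM (SD, n = 8). Of the adaptors and kinases, Tradd, the adaptor of the TNF receptor, was highest in MCA-943 with 20.9 ± 1.6 CPM (SD, n = 4), against 8.42 to 10.4 CPM elsewhere. Rnf31 and Birc2, which attach ubiquitin in the receptor complex, were each called higher in MCA-943 in 2 comparisons. Tnfaip3 (A20), which removes ubiquitin there, was highest in MCA-969, at 482 ± 291 CPM (SD, n = 8), and lowest in MCA-948, at 46.5 ± 19.5 CPM (SD, n = 8).

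In the BCL2 family 8 of 12 tested genes were called, none of them higher in MCA-943 than in every other line. Its death-inducing members Pmaip1 and Bbc3 were lowest in MCA-972, at 11.1 and 1.78 CPM, and highest at 44.5 CPM in MCA-948 and 7.46 CPM in MCA-969. Bmf was lowest in MCA-969, at 5.92 CPM, and Bik stayed under 0.60 CPM on average in every line. All 5 genes of necroptosis and the gasdermins were called. The kinase gene Ripk3 fell from MCA-943, at 103 ± 6 CPM (SD, n = 4), to MCA-948, at 2.41 ± 1.26 CPM (SD, n = 8), and the nucleic acid sensor gene Zbp1 was 95.9 ± 50.6 and 1.74 ± 0.84 CPM in the same lines. Of the pore-forming gasdermins, Gsdmd was highest in MCA-943, at 96.1 CPM, and Gsdme in MCA-970 and MCA-972, at means of 11.3 and 10.02 CPM.

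Of 16 other clade B serpins, 5 passed the filter and all 5 were called. Serpinb8 and Serpinb9b, the latter a paralog of Serpinb9, were higher in MCA-943 (11.4 and 2.36 CPM) than in each other line (1.01 to 4.48 and 0.53 to 0.94 CPM on average). Serpinb1a was higher in MCA-943 (6.65 CPM) than in MCA-948 (1.14 CPM) and MCA-970 (1.61 CPM), and Serpinb2 was highest in MCA-969 (5.43 CPM).

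**Figure D4:**
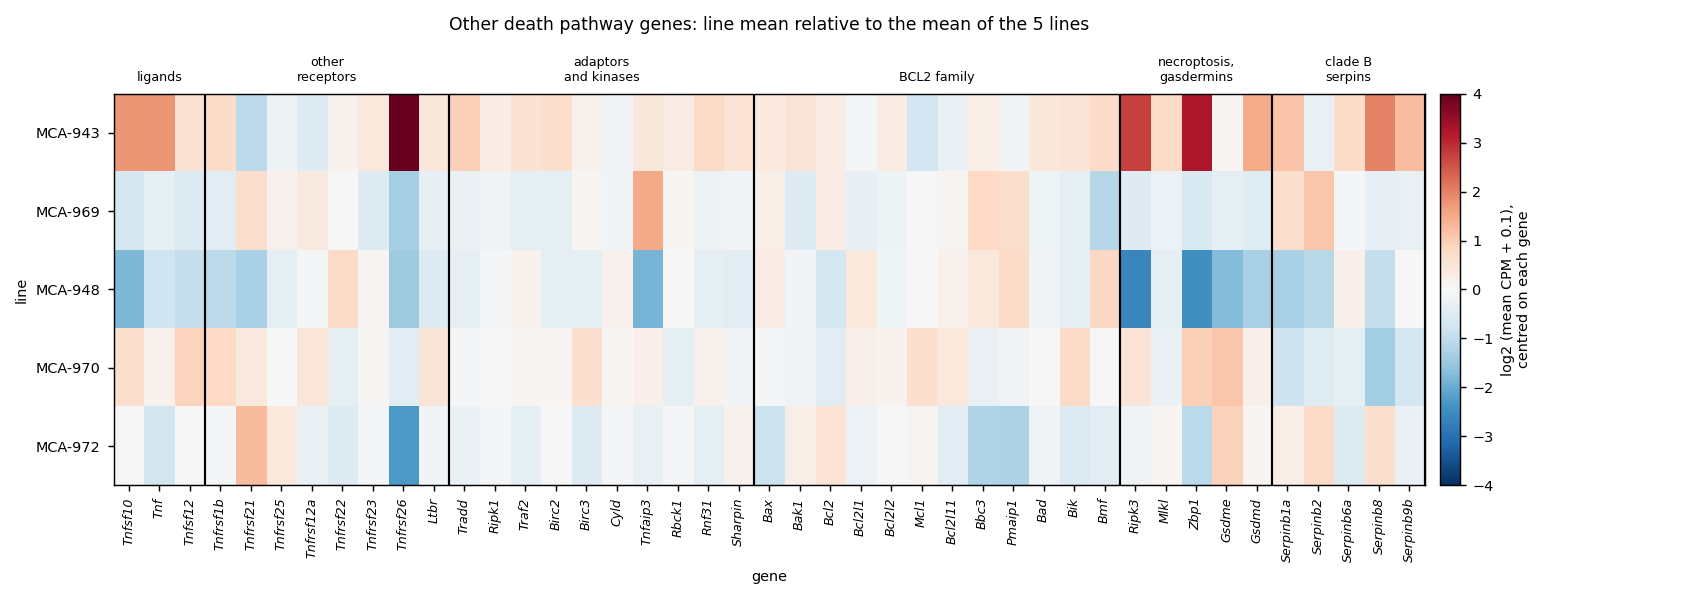
The 43 tested genes of the 6 pathway lists (columns, grouped by list) in the 5 lines (rows). Colour gives the log2 of the line's mean CPM plus 0.1, centred on each gene's mean over the lines, so that red is above and blue below that mean. Tnfrsf26, Zbp1 and Ripk3 are darkest red in MCA-943, and Zbp1 and Ripk3 are darkest blue in MCA-948.

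Markers of other cells also differed among the lines. The 10 leukocyte markers summed to 36.8 to 169 CPM in MCA-943, 17.3 to 320 CPM in MCA-970, 23.1 to 132 CPM in MCA-948, 25.1 to 73.6 CPM in MCA-972 and 8.55 to 55.4 CPM in MCA-969. Ptprc, which encodes the CD45 targeted by the beads, had its highest mean in MCA-943, at 12.5 ± 11.2 CPM (SD, n = 4), and 9 of the 10 markers differed among the lines. Cd53 alone of the 10 was called higher in MCA-943 than in each other line. It was 19.1 ± 4.2 CPM (SD, n = 4) there, against means of 1.16 to 4.20 CPM. Ptprc and Coro1a were called higher in MCA-943 than in MCA-969 and MCA-948 only. Cytotoxic lymphocytes themselves express Fas ligand and Serpinb9. Their 9 markers summed to 2.95 to 34.8 CPM in MCA-943, 0.21 to 22.6 CPM in MCA-970 and at most 9.08 CPM in the others. Ncr1 was at 0 in all 4 MCA-972 tumors, none of which is titled W. In each of the 4 lines with both letters, every W tumor had a higher sum than every a tumor. The a tumors had at most 0.48 CPM in MCA-948, 0.34 CPM in MCA-969 and 0.78 CPM in MCA-970. The W tumors had at least 1.65 CPM in MCA-948 and 0.86 CPM in MCA-969. In MCA-943 the only W tumor had 34.8 CPM, against at most 11.1 CPM in the a tumors. The letter was not tested for this sum, so these ranges mix line and letter. Of the cytotoxic markers, Cd8a alone was called higher in MCA-943 than in each other line, at 0.83 ± 0.55 CPM (SD, n = 4) against means of 0.02 to 0.23 CPM. Serpinb9 was 38.4 to 58.9 CPM in MCA-943, over leukocyte sums of 36.8 to 169 CPM. In MCA-970 Serpinb9 was 12.4 to 19.4 CPM, over leukocyte sums of 17.3 to 320 CPM. With the mean level of the leukocyte markers as a covariate all 27 calls of the 10 genes were kept, and Serpinb9 differed between MCA-943 and the other lines by 1.52 to 2.23 on the log2 scale. This covariate held none of the 9 markers of cytotoxic lymphocytes, and a mean of 10 markers cannot tell which cells held the RNA of a gene. Markers of mesenchymal cells, the cell type of a fibrosarcoma, were abundant in every tumor and summed to 64106 to 75644 CPM in MCA-943 and 14598 to 21211 CPM in MCA-948, the lines with the highest and the lowest mean. Endothelial markers had their highest mean in MCA-970, with 251 to 454 CPM.

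Interferon-induced genes, a list of 10, were highest in MCA-943, where they summed to 1242 to 2912 CPM, and lowest in MCA-948, at 95.0 to 183 CPM. In MCA-970 they summed to 577 to 1140 CPM, in MCA-972 to 378 to 643 CPM and in MCA-969 to 229 to 615 CPM. Of these genes, 9 were called higher in MCA-943 than in each other line, among them those of the immunoproteasome, Psmb8 (174 ± 41 CPM, SD, n = 4, against 0.93 to 35.0 CPM) and Psmb9, the peptide transporter gene Tap1 and Isg15. Within MCA-943 the tumor with the lowest sum, 1242 CPM, had the lowest Serpinb9, 38.4 CPM, and the tumor with the highest sum, 2912 CPM, had the highest, 58.9 CPM, while MCA-948 had a lower sum than MCA-969 and a higher mean Serpinb9 (13.8 against 8.87 CPM). That difference in Serpinb9 was not called (MCA-969 minus MCA-948, log2 difference -0.63, edgeR adjusted p = 0.00637). With the run as a covariate it was 0.05 (edgeR adjusted p = 0.932). Within the run these lines share it was 0.06 (edgeR adjusted p = 0.940, 2 tumors each). None of the 8 p53 target genes was called higher in MCA-943 than in every other line, and Cdkn1a, which encodes the cell cycle inhibitor p21, was highest in MCA-970 (65.8 CPM). Eda2r was highest in MCA-972 (23.5 CPM). Trp53inp1 (19.7 CPM) and Ccng1 (123 CPM) were highest in MCA-943. These last 2 of the 8 had both non-sensitive line means above all sensitive ones, a pattern that counted in either direction held for 16.7% of all genes. Apart from the fit with the leukocyte covariate, which cannot assign RNA to cells, no such fit was made for other cell types, interferon or p53. The part of interferon, of p53 and of leukocyte, cytotoxic lymphocyte, endothelial or mesenchymal content in the levels of the 10 genes was not tested.

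**Figure D5:**
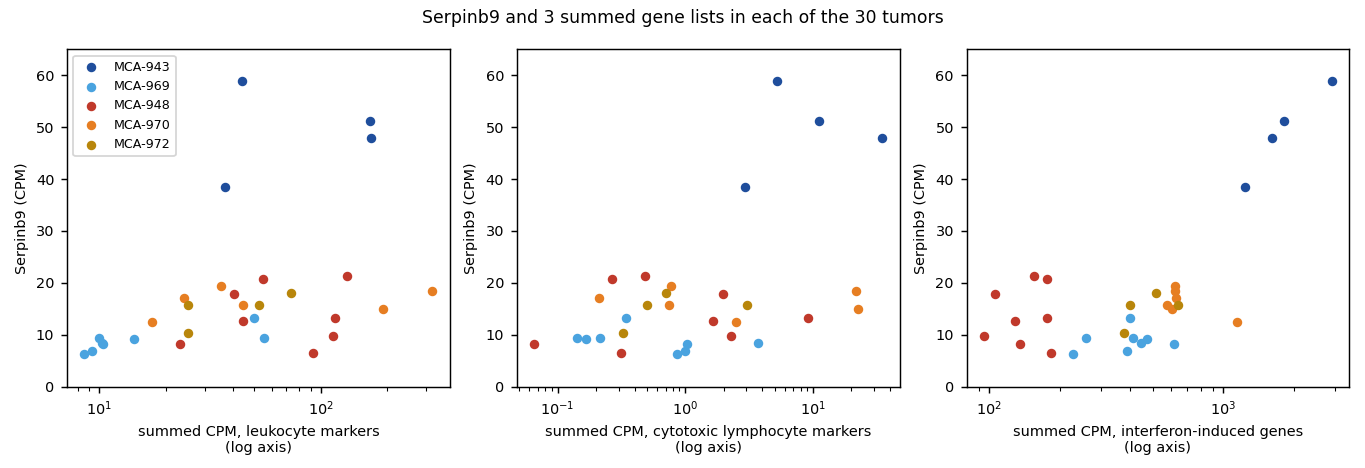
Serpinb9 in CPM (y axis) against the summed CPM of leukocyte markers, cytotoxic lymphocyte markers and interferon-induced genes (x axes, log scale) in each of the 30 tumors, coloured by line. The MCA-943 tumors lie above all others at any leukocyte sum, from 36.8 to 169 CPM, and at the right end of the interferon panel, from 1242 CPM upward.

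For the 3 genes with the widest ranges, the most similar genes were sought by the root mean square (RMS) difference between their 5 centred line means of log2 CPM, among all tested genes. Closest to Serpinb6b were Fgf1 (RMS 0.14), Rab29 (0.15) and Faap20 (0.15), and closest to Serpinb9 were Jaml (0.07), Plcb2 (0.12) and Tbc1d10c (0.14). Closest to Fas were Grap (0.09), Trbc1 (0.10) and Tspan17 (0.12). With 5 line means, this likeness is a description. Jaml, Plcb2 and Trbc1 had means under 1 CPM in every line.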

How the data were processed

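The deposited values are read counts per gene, without normalization, in 1 table of 48440 genes and 30 tumors. The authors aligned the reads with STAR 2.5.3a to GRCm38 and counted them with featureCounts (1.5.2 in the submitters' processing notes), and removed duplicate reads by molecular identifier, per the column names. The strand setting is not given in the sources used here. The spans of Fadd and Bid overlap genes on the opposite strand (Faddos for Fadd, Bcl2l13 and Gm17812 for Bid). Overlap of exons was not examined, so whether this changed the counts of Fadd and Bid is not known. Names were taken from GENCODE mouse release M21, which names 48058 of the genes.

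Groups were the lines in the sample titles, and sensitivity was taken from the paper. Counts were filtered with filterByExpr (16862 genes), scaled by TMM and fitted with edgeR 4.0.16 (R 4.3.3) by robust quasi-likelihood, with line as factor, over 30 tumors; the letters were fitted with line over 26 tumors (16557 genes). Calls needed a Benjamini-Hochberg adjusted p under 0.05 and a log2 fold change of at least 1 in size. Log2 CPM used a prior count of 2. Alternatives were DESeq2 1.42.0, limma 3.58.1 voom, other scaling, filters and thresholds, covariates, a replicate block and leaving out tumors. The methods were tested on simulated data. No 2 tumors of a line were duplicates (83 pairs, chi-square per gene at least 14.6). The 10 genes and the lists were chosen with earlier results of these data known. A further list of pathway genes is not reported here. All 10 genes are named; of each list up to 4 genes are named, those called in most comparisons, then by range of line means, and the genes most like the 3 widest members are named by their line means. Ncr1, Fasl and Lta were named for their roles. Figures used Python 3.11.15 and matplotlib 3.10.9.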

Additional observations from a re-analysis of the deposited data

Results flagged for a closer look

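In 3 of 50 combinations of a gene and a line, 1 tumor stood apart from the others of its line by Dixon's test, which chance does in about 1 in 20. Tnfrsf10b was 36.5 CPM in tumor W-2G of MCA-943 and at most 34.2 CPM in its other tumors. It was 56.6 CPM in tumor W-2D of MCA-970, where the next was 47.4 CPM. Serpinb9 was 13.3 CPM in tumor a-1D of MCA-969, where the next was 9.45 CPM; the leukocyte markers summed to 49.7 CPM in that tumor, and the tumor with the highest sum of that line, a-R with 55.4 CPM, had 9.36 CPM of Serpinb9.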

How the results depend on the processing

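Of the 27 calls of the 10 genes, 17 were kept under every alternative fitted to all 5 lines with the fold threshold at 1 and 23 in every fit that left out 1 tumor, and none of the 27 changed its direction. Without a threshold on the fold change there were 49 calls between the sensitivities and 27 between lines of the same sensitivity, and with a log2 fold change of at least 2 there were 2 and 3. Leaving out each tumor in turn gave 15 to 18 and 9 to 10 calls, 10 genes that differed among the lines, 0 called between the letters and 1 whose line means did not overlap between the sensitivities. The calls of Fas in MCA-969 against MCA-970, Casp8 in MCA-943 against MCA-972, Cflar in MCA-943 against MCA-970 and Tnfrsf1a in MCA-969 against MCA-970, all with log2 differences near 1, were lost in some of these fits. With the run of library numbers as a covariate the calls were 13 and 11: 9 were lost and 6 gained, each given with its gene above. Of the 13 calls that could be compared within a run, 11 passed there and all 13 had the same sign; the others were Fas in MCA-969 against MCA-970 (-0.65) and Serpinb6b in MCA-969 against MCA-948 (2.89, adjusted p = 0.0517). A replicate block on the animal code gave 17 and 9 calls and took Fas in MCA-969 against MCA-970 to -0.99 and Casp8 in MCA-943 against MCA-972 to 0.99; the codes did not pair the tumors (mean correlation of deviations -0.007 for the same code and 0.002 for different codes). Without the 2 MCA-969 tumors labelled sensitive the calls were 17 and 9. Depth limits Serpinb6b in MCA-948, with as few as 23 counts.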
